A study of Mus musculus with 2 samples.

Results

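A set of 10 transcription regulators known to set fast or slow fibre type was followed through nuclei of mouse tibialis anterior (TA) muscle, a leg muscle made mostly of fast fibres. They were the calcium-regulated factors *Nfatc1*, *Nfatc2*, *Nfatc3* and *Nfatc4*, the class IIa histone deacetylases *Hdac4* and *Hdac9*, and the DNA-binding factors *Sox6*, *Tbx15*, *Maf* and *Prox1*. The members were chosen by gene symbol, and all 10 of 10 were present among the 32285 genes of the count matrices. The study made 1 library from mice labelled M-*Bcl6* WT, which carried the *Myf6*-Cre transgene with wild-type *Bcl6* (Myf6-Cre+ Bcl6 wt/wt), and 1 library from mice labelled M-*Bcl6* KO, which carried the same transgene with floxed alleles (Myf6-Cre+ Bcl6 fl/fl). Both groups were male, on a C57BL/6 background and 6 weeks old. The Cre was driven by the *Myf6* promoter, so that deletion was aimed at skeletal muscle cells. Nuclei of the right and left TA of 2 mice per group were pooled, stained with 7-AAD, a DNA dye, and sorted. With 1 library per genotype, no test between genotypes was possible. The intervals below are 95% intervals that cover counting error only, and a difference between the libraries cannot be told apart from a difference between pools of mice or library preparations.

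In a muscle fibre, calcium released at each contraction activates the phosphatase calcineurin, which lets NFAT factors enter the nucleus, where they are known to favour slow and oxidative programs. Class IIa histone deacetylases bind MEF2 factors and hold their targets silent until calcium-activated kinases send the deacetylases out of the nucleus. *Sox6* is known to repress slow fibre genes in fast fibres, and *Prox1* is known to favour the slow type. *Tbx15* is known for its role in glycolytic fibres, and large Maf factors for driving the type IIB myosin gene *Myh4*. Single-nucleus counts measure the RNA of these genes, not the activity or place of the proteins.

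The library labelled WT held 3798 barcodes and 11974138 unique molecular identifiers (UMIs, tags that count each captured RNA molecule once), and the KO-labelled library held 4096 barcodes and 12026013 UMIs. The libraries shared 6 barcodes. After filtering, 3674 and 3944 nuclei were kept, of which 2407 and 3087 were myonuclei, the nuclei of muscle fibres. *Bcl6*, the gene targeted, went against the labels: it had 1475 UMIs in myonuclei of the WT-labelled library (167 CPM, counts per 1000000 UMIs; 95% interval 159 to 176) and 4829 in the KO-labelled library (502 CPM; 488 to 516). The groups are therefore called by their labels throughout. The count covers the whole gene and does not check the floxed exons, and the genotype was not checked any further here. An exchange of the labels would turn every direction given below for the KO-labelled over the WT-labelled library.

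Each myonucleus was given the fibre type of the myosin heavy chain gene with most UMIs among *Myh4* (type IIB), *Myh1* (IIX), *Myh2* (IIA) and *Myh7* (slow type I). The libraries labelled WT and KO held 701 and 612 *Myh4*-main nuclei, 1155 and 1174 *Myh1*-main nuclei, and 236 and 482 *Myh2*-main nuclei. *Myh7*-main nuclei numbered 2 and 19, nuclei with no UMI of these genes 274 and 734, and ties 39 and 66. Median UMIs per nucleus were 3004 and 2394 in *Myh4*-main nuclei, 3374 and 3061 in *Myh1*-main nuclei, and 3310.5 and 3094 in *Myh2*-main nuclei. The levels below are UMIs of a gene summed over a group of nuclei and divided by all UMIs of that group, as CPM.

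Promoter sequences were taken from RefSeq for GRCm38.p6, which is of the same build as mm10, the build that the submitters' processing notes name. They covered 250 bases before to 50 bases after each start, and 16 promoters of 7 members were found. The promoters of *Hdac9* and the first of *Nfatc2* are shown because these genes were the members whose RNA was higher in the KO-labelled library. In the sequences, given 5′ to 3′ on the gene's strand, capitals mark GGAAA, the core of an NFAT site, and CTATTTTT, a MEF2-type site, on either strand (TTTCC and AAAAATAG). The pair of motifs shares no letters at any of the marked places. *Hdac9* is itself a known target of MEF2.
Hdac9, first start, chr12:34917046-34917345, minus strand: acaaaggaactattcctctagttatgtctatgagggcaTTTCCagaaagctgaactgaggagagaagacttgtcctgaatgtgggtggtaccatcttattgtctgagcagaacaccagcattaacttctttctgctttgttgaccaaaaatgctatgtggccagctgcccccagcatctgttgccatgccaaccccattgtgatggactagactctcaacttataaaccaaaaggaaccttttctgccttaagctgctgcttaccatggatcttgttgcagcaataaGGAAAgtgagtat
Hdac9, second start, chr12:34528840-34529139, minus strand: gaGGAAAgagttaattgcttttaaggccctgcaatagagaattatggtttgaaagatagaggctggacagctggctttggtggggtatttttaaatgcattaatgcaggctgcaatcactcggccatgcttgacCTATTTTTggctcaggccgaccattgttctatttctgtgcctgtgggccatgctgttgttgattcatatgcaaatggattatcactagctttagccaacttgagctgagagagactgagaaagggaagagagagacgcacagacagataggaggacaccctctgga
Nfatc2, first start, chr2:168601608-168601907, minus strand: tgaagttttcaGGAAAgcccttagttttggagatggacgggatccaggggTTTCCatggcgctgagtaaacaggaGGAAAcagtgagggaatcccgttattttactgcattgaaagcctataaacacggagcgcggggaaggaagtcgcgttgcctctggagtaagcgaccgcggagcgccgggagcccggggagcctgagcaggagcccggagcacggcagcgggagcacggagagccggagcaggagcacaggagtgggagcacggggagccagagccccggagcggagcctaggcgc
The first *Hdac9* start held 2 NFAT cores and no MEF2-type site, and the second, inside the gene, held 1 of each. The *Nfatc2* promoter shown held 3 NFAT cores, and that of a second *Nfatc2* start, not shown, held 1. Among 32851 promoters of the same length, 61.3% held the NFAT core and 1.49% held the MEF2-type site. The second *Hdac9* start was the only one of the 16 member promoters with the MEF2-type letters. These matches describe the letters in these windows and are not evidence of binding.

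The genes differed widely in level. Per kilobase of gene span, as a rough allowance for length, *Maf* led with 13.6 CPM per kb in myonuclei of the WT-labelled library, followed by *Sox6* with 5.28, *Tbx15* with 4.13, *Nfatc3* with 2.73 and *Hdac4* with 1.34. *Nfatc1* stood at 0.523, *Nfatc2* at 0.305 and *Hdac9* at 0.293, while *Nfatc4* and *Prox1* stood at 0.136 and 0.135. Levels of different genes are compared only on this scale. Annotated antisense or opposite-strand genes overlapped *Nfatc1*, *Nfatc3*, *Sox6*, *Tbx15*, *Maf* and *Prox1*, and a same-strand gene overlapped *Hdac9*. The gene opposite *Nfatc1* was not counted here. Of the others, the highest count in myonuclei was the 215 and 117 UMIs of *Gm45025*, which lies opposite *Sox6*, in the libraries labelled WT and KO.

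Between fibre types, *Maf* and *Sox6* were highest in *Myh4*-main nuclei, while *Hdac9* and *Nfatc2* were lowest there. For each pair of groups, the log2 ratio of CPM was set relative to the median log2 ratio of all genes with at least 100 UMIs in the groups together, and a gene was called where it passed 1.5-fold on that relative scale. Of 8 members with enough UMIs, 2 were called higher and 2 lower in *Myh4*-main than in *Myh2*-main nuclei of the WT-labelled library, beside 35.9% of all 4392 genes called in either direction. In the KO-labelled library, 1 was called higher and 2 lower of 8, beside 35.8% of 4243 genes. Between *Myh1*-main and *Myh2*-main nuclei, 3 of 8 members were called in the WT-labelled library, beside 11.7% of 5613 genes, and 2 of 8 in the KO-labelled library, beside 10.8% of 5594 genes. Between *Myh4*-main and *Myh1*-main nuclei, 2 of 8 were called in each library, *Maf* and *Hdac9*, beside 28.6% of 6260 genes and 26.6% of 5597 genes.

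*Maf* showed the clearest order. In the WT-labelled library it was at 549 CPM (520 to 579) in *Myh4*-main nuclei, 238 (224 to 253) in *Myh1*-main nuclei and 95.9 (76.6 to 119) in *Myh2*-main nuclei. The same order held in the KO-labelled library, with 433 (403 to 466), 195 (182 to 209) and 84.4 (71.0 to 99.5). No 2 neighbouring types had intervals that overlapped in either library. The relative log2 ratio of *Myh4*-main over *Myh2*-main nuclei was 2.49 (2.18 to 2.83; 5.63-fold) in the WT-labelled library and 2.32 (2.06 to 2.59; 4.98-fold) in the KO-labelled library. After each nucleus was thinned to 1000 UMIs, 36.5% of *Myh4*-main nuclei of the WT-labelled library had a *Maf* UMI (exact 95% interval 33.0 to 40.3; 63.8% unthinned), against 9.44% of *Myh2*-main nuclei (6.01 to 13.9; 27.1% unthinned). Endothelial-like nuclei, named from their markers below, had a *Maf* UMI in 1.31% of nuclei at the same thinned depth, from unthinned medians of 1391 UMIs against 3004 in *Myh4*-main nuclei.

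*Sox6* followed the same order with a smaller range. It was at 3665 CPM (3590 to 3741) in *Myh4*-main, 2779 (2730 to 2828) in *Myh1*-main and 2032 (1940 to 2129) in *Myh2*-main nuclei of the WT-labelled library. Levels in the KO-labelled library were 2308 (2237 to 2380), 2222 (2176 to 2269) and 1953 (1887 to 2022), so that the first 2 types were not apart. The relative log2 ratio of *Myh4*-main over *Myh2*-main nuclei was 0.83 (0.75 to 0.90) in the WT-labelled library and 0.20 (0.13 to 0.26) in the KO-labelled library. The gradient of *Sox6* was thus called in the WT-labelled library only. Whether the libraries differ in it was not tested.

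*Hdac9* ran the other way in the WT-labelled library. It was at 148 CPM (134 to 164) in *Myh4*-main, 266 (251 to 282) in *Myh1*-main and 445 (402 to 491) in *Myh2*-main nuclei, with no overlap between neighbours. The KO-labelled library had 292 (267 to 318), 497 (475 to 519) and 415 CPM (385 to 447), so that *Myh1*-main nuclei stood highest. The relative log2 ratio of *Myh1*-main over *Myh2*-main nuclei was -0.73 (-0.90 to -0.56) in the WT-labelled library, where it was called, and 0.27 (0.14 to 0.39) in the KO-labelled library. The intervals lay on opposite sides of 0.

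*Nfatc2*, which encodes NFAT1, was highest in *Myh2*-main nuclei of both libraries. Its levels in *Myh4*-, *Myh1*- and *Myh2*-main nuclei were 29.6 (23.3 to 37.2), 37.0 (31.6 to 43.1) and 71.1 CPM (54.6 to 91.0) in the WT-labelled library. They were 44.5 (35.1 to 55.6), 56.3 (49.2 to 64.1) and 86.8 CPM (73.2 to 102) in the KO-labelled library. *Myh2*-main nuclei were apart from *Myh1*-main nuclei in both libraries, and *Myh1*-main and *Myh4*-main nuclei were not. The relative log2 ratio of *Myh4*-main over *Myh2*-main nuclei was -1.29 (-1.79 to -0.78) and -1.01 (-1.43 to -0.60).

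*Hdac4* was lowest in *Myh4*-main nuclei of both libraries, at 277 CPM against 390 in *Myh2*-main nuclei of the WT-labelled library and at 268 against 377 in the KO-labelled library. *Myh1*-main nuclei stood highest in the WT-labelled library, not apart from *Myh2*-main nuclei. In the KO-labelled library they were not apart from *Myh4*-main nuclei. The relative log2 ratios of *Hdac4* in *Myh4*-main over *Myh2*-main nuclei, -0.52 (-0.71 to -0.33) and -0.54 (-0.72 to -0.36), were inside the 1.5-fold limit. They passed it as a mean over nuclei (-0.66 and -0.62) and after thinning to 1000 UMIs (-0.81 and -0.66), and in the KO-labelled library also in nuclei with 1 main myosin gene at 80% or more (-0.80). *Tbx15* was at 441, 512 and 468 CPM in *Myh4*-, *Myh1*- and *Myh2*-main nuclei of the WT-labelled library. There *Myh1*-main nuclei (491 to 533) were apart from *Myh4*-main nuclei (415 to 468), and the interval of *Myh2*-main nuclei (424 to 516) overlapped both. In the KO-labelled library it was at 397, 547 and 651 CPM with all 3 types apart, and its relative log2 ratio of *Myh4*-main over *Myh2*-main nuclei was -0.76 (-0.90 to -0.62). *Nfatc3*, which encodes NFAT4, lay between 189 and 203 CPM in the WT-labelled library and between 164 and 172 CPM in the KO-labelled library, with no neighbouring types apart. *Nfatc1*, which encodes the NFAT factor known to be induced by slow nerve activity, lay between 46.0 and 63.2 CPM and between 67.0 and 69.3 CPM, again with no neighbours apart.

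*Prox1* and *Nfatc4* were near the limit of what these libraries could count in myonuclei. *Prox1* had 13, 20 and 16 UMIs in *Myh4*-, *Myh1*- and *Myh2*-main nuclei of the WT-labelled library, or 5.20, 4.46 and 18.1 CPM, and *Myh2*-main nuclei (10.3 to 29.3 CPM) were apart from the other types. In the KO-labelled library it had 2, 22 and 14 UMIs, and its neighbouring types were not apart. All myonuclei together held 63 *Prox1* UMIs in the WT-labelled library and 55 in the KO-labelled library, beside 71 and 63 UMIs of *Pax7*, the defining marker of muscle stem cells, which express *Prox1* strongly. The part of free muscle stem cell RNA in the *Prox1* count was not tested. *Nfatc4* had 13 and 12 UMIs in all myonuclei, and 0 UMIs in *Myh4*-main nuclei of the WT-labelled library, where a count of 0 allows up to 3 UMIs, or 1.20 CPM.

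**Figure D1:**
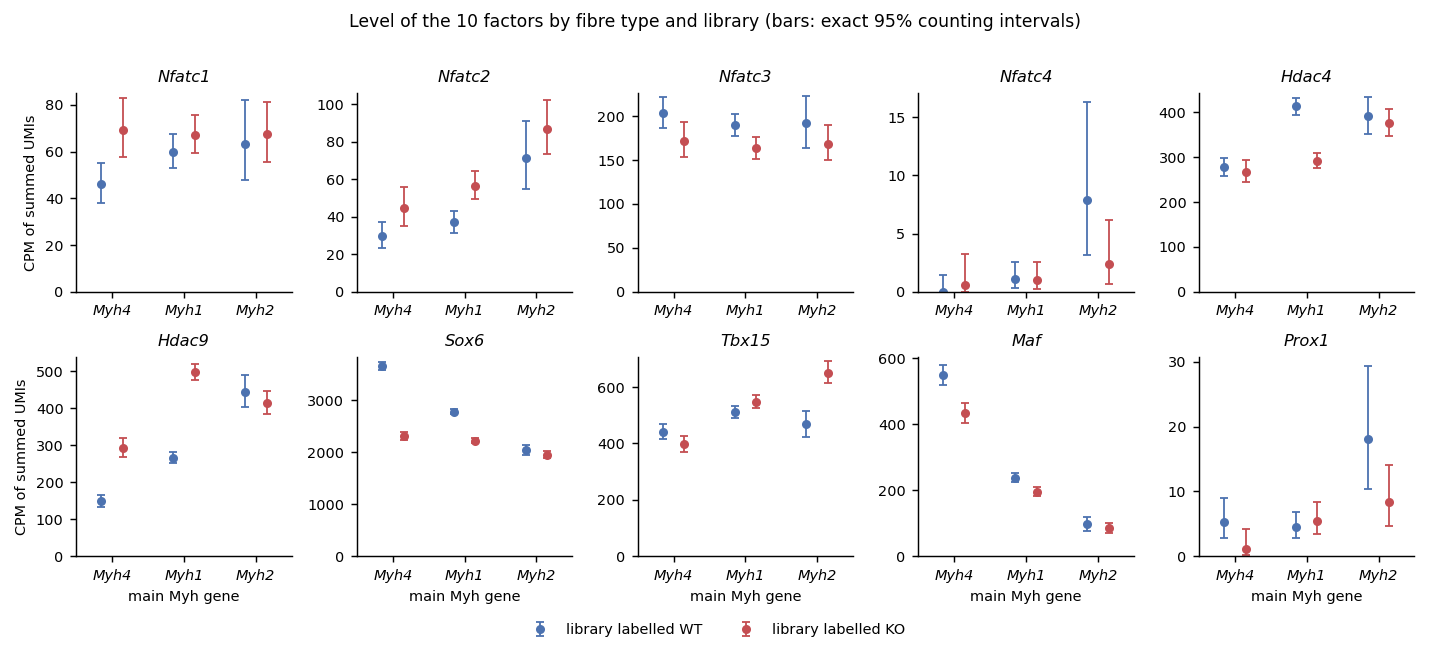
Level of each of the 10 factors, in CPM of summed UMIs (vertical axes from 0, one scale per gene), in *Myh4*-, *Myh1*- and *Myh2*-main nuclei of the WT-labelled library (blue) and KO (red). Points are levels and bars exact 95% counting intervals; *Maf* fell from 549 to 95.9 CPM and *Hdac9* rose from 148 to 445 CPM from left to right in the WT-labelled library.

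Nuclei with at least 3 UMIs of the myosin genes were also divided by whether 1 gene held at least 80% of them. *Maf* fell from *Myh4* nuclei through mixed nuclei to *Myh1* nuclei, and mixed *Myh1* and *Myh2* nuclei were not apart from *Myh2* nuclei in either library. In the WT-labelled library it was at 564 CPM in *Myh4* nuclei, 314 in mixed *Myh4* and *Myh1* nuclei, 225 in *Myh1* nuclei, 120 in mixed *Myh1* and *Myh2* nuclei and 97.8 in *Myh2* nuclei. In the KO-labelled library it was at 487, 335, 187, 76.3 and 79.3 CPM. *Hdac9* in mixed *Myh4* and *Myh1* nuclei was at 91.1 CPM in the WT-labelled library, on 54 nuclei, and at 552 CPM in the KO-labelled library, on 56 nuclei. This was the widest gap between libraries for *Hdac9* among the 5 divisions. In *Myh2* nuclei it was at 426 and 380 CPM.

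**Figure D2:**
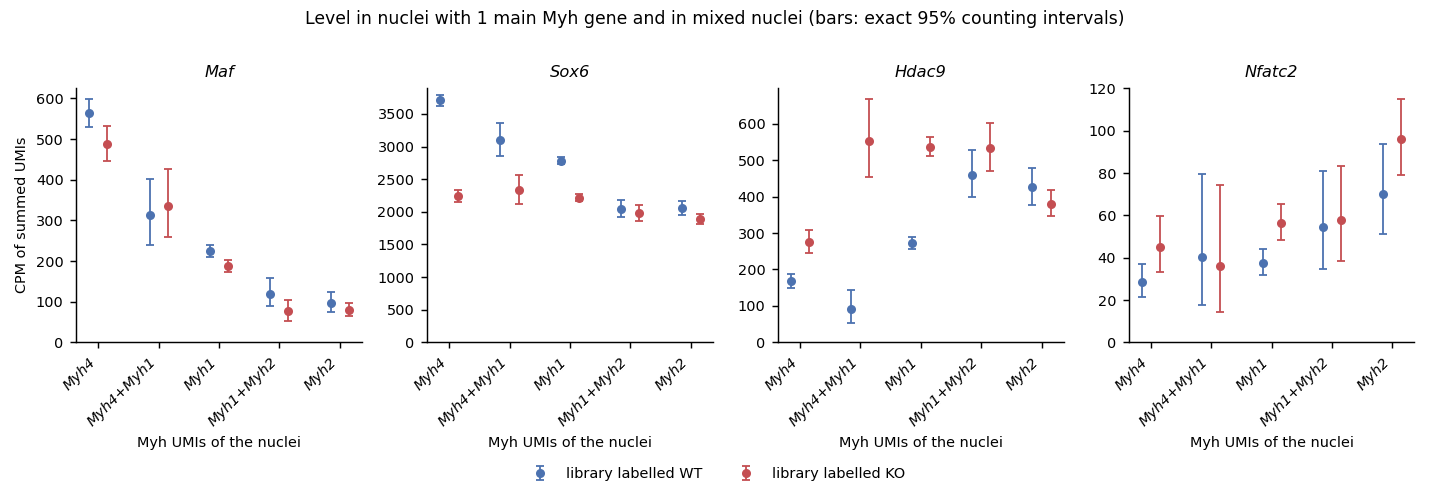
Level of *Maf*, *Sox6*, *Hdac9* and *Nfatc2*, in CPM of summed UMIs, in nuclei with at least 80% of their myosin UMIs from 1 gene and in mixed nuclei, for the WT-labelled library (blue) and KO (red), with exact 95% counting intervals. *Hdac9* stood higher in the KO-labelled library in *Myh4* and *Myh1* nuclei and in the nuclei between them, and the *Sox6* levels of the libraries came together toward *Myh2*.

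The few *Myh7*-main nuclei of the KO-labelled library held 317 *Myh7* UMIs in 19 nuclei. *Prox1* had 10 UMIs there, in 7 of the nuclei, or 148 CPM (71.1 to 273), against 8.38 CPM in *Myh2*-main nuclei of the same library. *Pax7* had 1 UMI in these nuclei, and the lymphatic markers *Mmrn1* and *Flt4* had none. *Nfatc2* was at 222 CPM (124 to 367) on 15 UMIs and *Hdac9* at 727 CPM (537 to 960) on 49 UMIs. Relative to *Myh2*-main nuclei, *Nfatc2* had a log2 ratio of 1.45 (0.58 to 2.22) and *Hdac9* of 0.90 (0.46 to 1.32). *Nfatc1* was the third member called higher and *Nfatc3* the member called lower, with intervals that include 0, so that 4 of 8 members were called, beside 44.8% of 2660 genes. The library labelled WT held 2 such nuclei, in which *Prox1* had 1 UMI.

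Between the libraries, *Hdac9* and *Nfatc2* were higher in myonuclei of the KO-labelled library, and no member was called lower over all myonuclei together. Of 9 members with at least 100 UMIs, 2 were called higher, beside 10.4% of 8758 genes called higher, 6.89% called lower and 17.2% called in either direction. The median log2 ratio of all genes was -0.14, to which the ratios below are relative. The median of the 9 members was -0.06. *Nfatc4*, with 25 UMIs in all, was not counted.

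*Hdac9* rose from 254 CPM (244 to 265; 2247 UMIs) to 413 CPM (400 to 426; 3972 UMIs), a relative log2 ratio of 0.84 (0.76 to 0.91; 1.79-fold). The difference lay in the *Myh4*- and *Myh1*-main nuclei, with relative log2 ratios of 1.10 (0.90 to 1.30) and 1.04 (0.94 to 1.15), while that of *Myh2*-main nuclei was 0.03 (-0.15 to 0.21). With the fibre types weighted by their share in the WT-labelled library, the ratio was 0.95, and without junction nuclei it was 0.99. In 5 of the 7 myonuclear clusters it was called higher, from 0.62 (0.51 to 0.74) in cluster 1, where *Hdac9* was highest at 538 and 772 CPM, to 2.12 (1.83 to 2.41) in cluster 5, with 115 and 429 CPM. Of all genes, 24.2%, 13.2%, 15.9%, 24.1% and 27.8% were called in either direction in clusters 0, 1, 2, 3 and 5. In the cluster of myotendinous junction nuclei, described below, *Hdac9* was called lower, at -0.65 (-0.91 to -0.39). A single nucleus there held 126 of the 334 *Hdac9* UMIs of the WT-labelled library, which the counting interval does not cover. In the cluster of neuromuscular junction nuclei *Hdac9* had too few UMIs. Macrophages and endothelium express *Hdac9* strongly, and their defining markers were low in myonuclei, with 3 and 4 UMIs of *Csf1r* and 24 and 32 of *Pecam1* in the libraries labelled WT and KO. The summed macrophage list was at 31.9 CPM in myonuclei of the WT-labelled library and 91.5 CPM in the KO-labelled library, against 7947 and 10851 CPM in macrophage-like nuclei. Its part in the result was not tested.

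*Nfatc2* rose from 38.2 CPM (34.2 to 42.5; 337 UMIs) to 59.2 CPM (54.5 to 64.3; 570 UMIs), a relative log2 ratio of 0.77 (0.58 to 0.97; 1.71-fold). It was 0.71 (0.23 to 1.19) in *Myh4*-main, 0.75 (0.45 to 1.04) in *Myh1*-main and 0.42 (-0.02 to 0.87) in *Myh2*-main nuclei. Weighted by the fibre types of the WT-labelled library it was 0.70. With each nucleus thinned to 1000 UMIs the ratio was 0.43 and the call was lost.

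*Sox6* and *Maf* were lower in the KO-labelled library by less than 1.5-fold over all myonuclei. *Sox6* was at 3000.1 CPM (26497 UMIs) and 2251 CPM (21662 UMIs), a relative log2 ratio of -0.28 (-0.30 to -0.25). It was -0.54 (-0.60 to -0.49) in *Myh4*-main nuclei, -0.18 (-0.22 to -0.14) in *Myh1*-main nuclei and 0.07 (-0.01 to 0.16) in *Myh2*-main nuclei, so that the gap between the libraries narrowed from *Myh4*- to *Myh2*-main nuclei. *Maf* was at 338 and 240 CPM, a relative log2 ratio of -0.35 (-0.43 to -0.27), which came to -0.16 when fibre types were weighted by their share in the WT-labelled library. Within types it was -0.22 (-0.35 to -0.09) in *Myh4*-main, -0.15 (-0.28 to -0.01) in *Myh1*-main and -0.05 (-0.45 to 0.35) in *Myh2*-main nuclei. Among the clusters it was called lower in cluster 0 at -0.70 (-0.90 to -0.49) and in cluster 3 at -0.76 (-0.91 to -0.60), and stood at 0.47 (0.28 to 0.65) in cluster 2.

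The remaining members differed little between the libraries in all myonuclei. The relative log2 ratio was 0.36 (0.19 to 0.53) for *Nfatc1*, 0.19 (0.13 to 0.25) for *Tbx15*, -0.08 (-0.17 to 0.02) for *Nfatc3*, -0.06 (-0.14 to 0.01) for *Hdac4* and -0.18 (-0.73 to 0.36) for *Prox1*. Within *Myh4*-main nuclei, 3 of 8 members were called higher and none lower, beside 8.88% of 4765 genes called higher and 8.14% lower, the third being *Nfatc1* at 0.72 (0.34 to 1.10). Within *Myh1*-main nuclei, *Nfatc2* and *Hdac9* were the 2 of 8 called, beside 10.7% of 6759 genes called higher and 7.84% lower, and *Hdac4* stood at -0.36 (-0.47 to -0.26). Within *Myh2*-main nuclei, *Tbx15* was the 1 of 8 called, at 0.61 (0.44 to 0.77), beside 10.2% of 3606 genes called higher and 6.52% lower. Within nuclei with no myosin UMI, *Nfatc2* was the 1 of 8 called, at 0.70 (0.09 to 1.35), beside 13% of 3677 genes called higher and 8.87% lower.

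**Figure D3:**
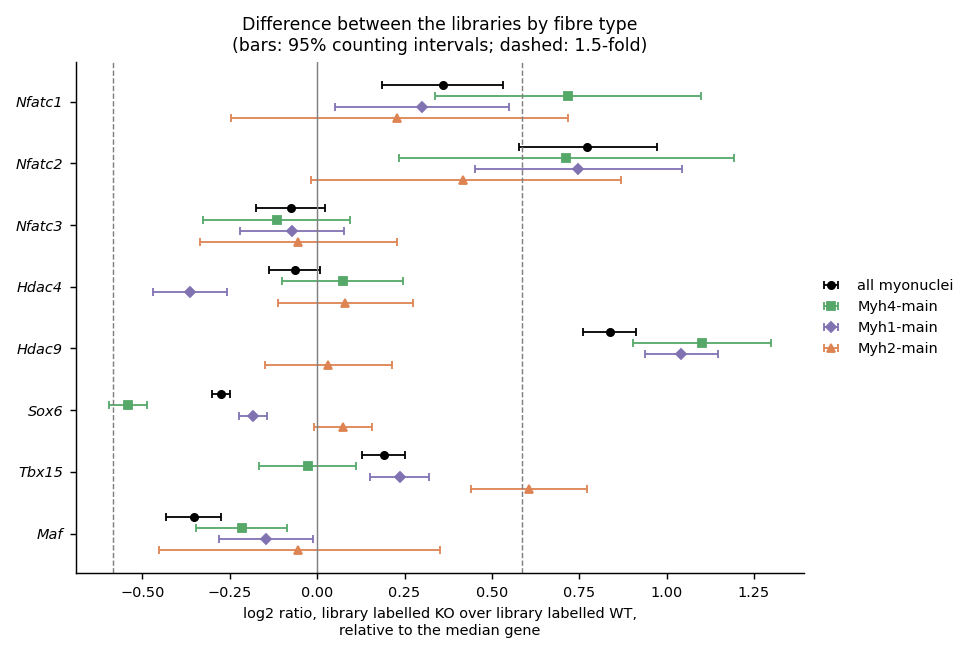
Log2 ratio of CPM in the KO-labelled library over the WT-labelled library, relative to the median gene (horizontal axis), for 8 factors in all myonuclei (black) and in *Myh4*-, *Myh1*- and *Myh2*-main nuclei (coloured), with 95% counting intervals. The dashed lines mark 1.5-fold; *Hdac9* lay beyond it in *Myh4*- and *Myh1*-main nuclei and at 0.03 in *Myh2*-main nuclei.

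Outside the ordinary myonuclei, the factors differed in the classes where they were high. Classes are called "-like" from the markers among the genes that set their cluster apart, and the members themselves were left out of the genes used for clustering. Of 9 members counted, 1 was called higher and 5 lower in all non-muscle nuclei than in myonuclei of the WT-labelled library, beside 32.9% of 8823 genes called higher and 31.2% called lower. In the KO-labelled library, 1 was called higher and 6 lower of 9, beside 31.1% and 31.2% of 8372 genes. *Prox1* was the member called higher, with relative log2 ratios of 2.60 and 3.01. *Sox6* was called lower most strongly, with -4.00 (-4.12 to -3.88) and -3.40 (-3.53 to -3.27). Without setting the ratios relative to the median, *Nfatc2* and *Tbx15* lost their calls in the WT-labelled library, and *Nfatc1*, *Nfatc2* and *Hdac9* lost theirs in the KO-labelled library. Scaling by TMM moved the calls the other way. The share of all genes called on that scale was not computed, so the number of members called on it is not given. *Nfatc1* at -0.91 and *Nfatc3* at -0.86 were then called lower in the WT-labelled library, and *Nfatc3* at -0.64 and *Tbx15* at -0.94 in the KO-labelled library.

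*Hdac9* stood out in 3 classes. In nuclei like those of the myotendinous junction (MTJ-like), where fibres meet tendon, it was at 2887 CPM (2586 to 3214) on 334 UMIs in 26 nuclei of the WT-labelled library and at 1822 CPM (1572 to 2100) on 190 UMIs in 31 nuclei of the KO-labelled library. A single nucleus held 126 of the 334 UMIs. The relative log2 ratio between the libraries was -0.65 (-0.91 to -0.39), and that of *Sox6* was -1.20 (-1.54 to -0.88), where 34.2% of 298 genes were called in either direction. *Pecam1* and *Csf1r* had 0 UMIs in these nuclei. The summed macrophage list was at 190 and 374 CPM, on 22 and 39 UMIs of 2 of its 10 markers, and the endothelial list at 8.64 and 19.2 CPM, on 1 of 10 markers. The summed list of fibro-adipogenic progenitor (FAP) markers was at 15543 and 18208 CPM there, on 5 and 6 of 10 markers detected, against 411 and 355 CPM in all myonuclei. *Lama2*, a gene of the FAP list, is also among the markers used for MTJ nuclei. The FAP sum therefore does not measure how much FAP RNA these nuclei held. The part of the macrophage, endothelial and FAP lists in the result was not tested. FAP-like nuclei themselves had 13.5 and 15.4 CPM of *Hdac9*. In endothelial-like nuclei *Hdac9* was at 1168 CPM (1064 to 1280) and 1082 CPM (961 to 1213), and in macrophage-like nuclei at 1459 CPM (1288 to 1647) and 1490 CPM (1275 to 1730). The libraries did not differ beyond the intervals in either class.

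*Maf* and *Prox1* marked the lymphatic endothelial-like nuclei, which numbered 11 and 7. *Maf* was at 1866 CPM (1345 to 2522; 42 UMIs) and 1882 CPM (1270 to 2686; 30 UMIs) there. *Prox1*, the factor known to set lymphatic identity, was at 1200 CPM (791 to 1745; 27 UMIs) and 941 CPM (527 to 1552; 15 UMIs). In the other endothelial-like nuclei *Prox1* had 2 UMIs in 224 nuclei and 1 UMI in 131. Muscle stem cell-like (MuSC-like) nuclei held *Prox1* at 308 CPM (246 to 381) and 408 CPM (323 to 510). In macrophage-like nuclei *Maf* was at 524 CPM (423 to 641) and 857 CPM (697 to 1044), a relative log2 ratio of 0.76 (0.34 to 1.19) between the libraries. There it was the 1 called of 2 members counted, beside 10.1% of 574 genes called higher and 7.32% lower. The summed lists of T or NK lymphocyte markers and macrophage markers also differed in this class, at 2389 and 1758 CPM and at 7947 and 10851 CPM, and their part in the result was not tested.

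*Tbx15* was higher in FAP-like nuclei than in *Myh4*-, *Myh1*- or *Myh2*-main nuclei, at 687 CPM (639 to 737) and 879 CPM (811 to 950), against 20.4 and 18.4 CPM in endothelial-like nuclei. *Nfatc4*, at 1.47 and 1.25 CPM in myonuclei, was at 34.1 and 29.4 CPM in FAP-like, 78.0 and 53.0 in tenocyte-like and 38.1 and 38.6 in pericyte- or smooth muscle-like nuclei. *Nfatc2* was at 195 and 338 CPM in macrophage-like nuclei, above its level in each of the *Myh4*-, *Myh1*- and *Myh2*-main nuclei. This class also held the T or NK lymphocyte list at 2389 and 1758 CPM, a list that shares *Ptprc* with the macrophage list. The part of lymphocyte RNA in the *Nfatc2* level was not tested. *Nfatc1*, which is also known for its role in endocardial and endothelial cells, was at 78.9 and 99.3 CPM in endothelial-like nuclei, on 31 UMIs in 224 nuclei and 27 in 131. It was not particular to that class, with 17 UMIs in 100 and 18 in 57 macrophage-like nuclei. *Hdac4* in MuSC-like nuclei was at 326 CPM (262 to 401) and 544 CPM (445 to 660), a relative log2 ratio of 0.79 (0.37 to 1.21), and was the 1 of 4 members called there beside 7% of 971 genes called higher and 7.11% lower.

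*Sox6* was at 1098 CPM (945 to 1269) and 1404 CPM (1221 to 1606) in tenocyte-like nuclei, the connective tissue cells of tendon. Free myonuclear RNA, read from the myonuclear markers in the same nuclei, could give at most 252 and 190 CPM there. In FAP-like nuclei *Sox6* was at 67.4 CPM (53.0 to 84.5) and 95.2 CPM (73.9 to 121), where free myonuclear RNA could give up to 70.8 and 86.2 CPM. In macrophage-like nuclei it was at 78.0 CPM (42.6 to 131) and 156 CPM (92.4 to 246), against up to 81.6 and 163 CPM. All 4 intervals reached that background, so that *Sox6* was not detectable above it.

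**Figure D4:**
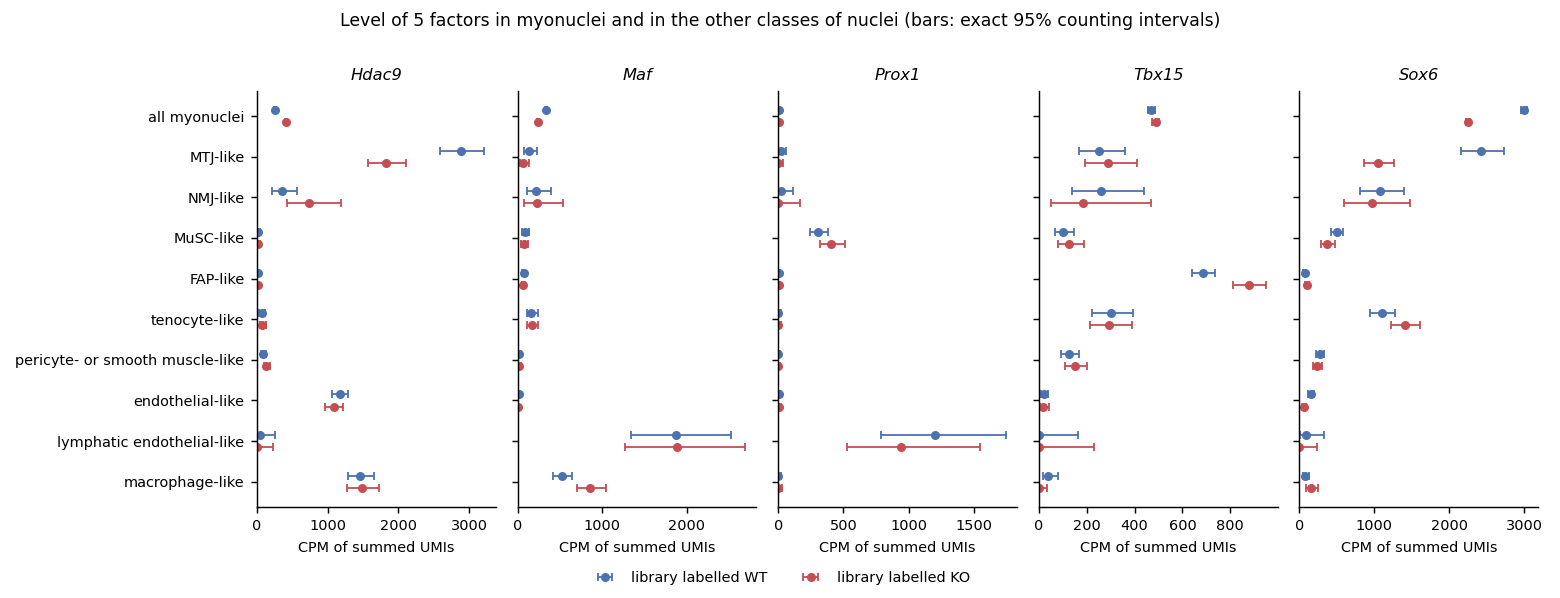
Level of *Hdac9*, *Maf*, *Prox1*, *Tbx15* and *Sox6* (horizontal axes, CPM of summed UMIs from 0, one scale per gene) in all myonuclei and in the other classes of nuclei (rows) of the WT-labelled library (blue) and KO (red), with exact 95% counting intervals. *Hdac9* was highest in MTJ-like nuclei, *Maf* and *Prox1* in lymphatic endothelial-like nuclei, *Tbx15* in FAP-like nuclei and *Sox6* in myonuclei.

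Genes that act with these factors were read as lists, with the counts set against the same background of 10.4% called higher and 6.89% called lower between the libraries. The relative scale puts the median of all genes at 0. Of calcineurin and its regulators, 2 of 17 counted genes were called higher and none lower in myonuclei of the KO-labelled library, with a list median of -0.10. *Myoz2*, which encodes the calcineurin-binding protein calsarcin-1, was at 1.44 (874 and 2349 UMIs). Of the kinases that send NFAT out of the nucleus, none of 10 was called, with a median of 0.06.

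Of the partners and kinases of class IIa deacetylases, 2 of 21 were called higher and 3 lower, with a median of 0.13. *Hdac7*, a further class IIa deacetylase, was at 1.37 (302 and 772 UMIs) and the kinase gene *Prkd1* at 1.20. The salt-inducible kinases *Sik1* and *Sik2*, which phosphorylate these deacetylases, were at -2.33 (314 and 62 UMIs) and -0.77. Of other fibre-type regulators, 10 of 32 were called higher and 1 lower, with a median of 0.25. The highest were the orphan nuclear receptor genes *Nr4a3* at 1.94 and *Esrrb* at 1.90.

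Of slow fibre genes, 7 of 8 counted were called higher and none lower, with a median of 1.38, and the other 7 of the 15 listed were too low to count. *Myh7* rose from 5 to 326 UMIs, a relative log2 ratio of 6.04, and *Casq2*, which stores calcium in the reticulum, was at 1.95. Most *Myh7* UMIs of the KO-labelled library, 317, lay in the 19 *Myh7*-main nuclei, and *Myh7* passed the 100-UMI limit only through that library. *Myh2*-main nuclei, where *Myoz2*, *Ankrd2* and *Csrp3* were higher than in *Myh4*-main nuclei, were 236 of 2407 and 482 of 3087 myonuclei in the libraries labelled WT and KO. The lists were not weighted by fibre type, and the part of these numbers in the slow fibre list was not tested. Of 17 fast fibre genes, 4 were called higher and 2 lower, with a median of -0.03. The highest were *Mylpf* at 1.21 and *Tnnc2* at 0.98, and the lowest were *Actn3* at -0.68 and *Myh4* at -0.60.

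Between fibre types, the lists served to describe the types. In *Myh4*-main over *Myh2*-main nuclei of the WT-labelled library, 0 of 4 slow fibre genes were called higher and 4 lower, with *Myoz2* at -7.82 (5 against 395 UMIs) and *Ankrd2* at -4.93. All 5 counted were called lower in the KO-labelled library, with *Csrp3* at -4.89 and *Myoz2* at -4.45. Of fast fibre genes, 8 of 16 were called higher and 2 lower in either library, *Myh4* being highest at 5.40 and 5.50 and *Myh1* lowest at -3.57 and -2.74. *Myh4*, *Myh1* and *Myh7* helped to set the types, so that these values are no finding. The background was 17.9% called higher and 18.1% lower in the WT-labelled library, and 15.2% and 20.6% in the KO-labelled library.

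Of other fibre-type regulators, 3 of 25 were called higher and 13 lower in *Myh4*-main nuclei of the WT-labelled library, with a list median of -0.63, and 4 of 27 higher and 12 lower in the KO-labelled library, with a median of -0.51. Of calcineurin and its regulators, 2 of 14 were called higher and 6 lower in the WT-labelled library, and 5 and 6 of 14 in the KO-labelled library, with medians of -0.19 and -0.31. Of the class IIa partners and kinases, 3 of 17 were called higher and 2 lower, and 2 and 3 of 16, with medians of 0.10 and 0.27. Of the export kinases, 1 of 8 and 1 of 7 were called higher and none lower, with medians of 0.22 and 0.14.

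For each member except *Nfatc4*, which had too few UMIs in fibre types and classes, the 3 genes of most similar pattern were found among 5721 genes, by Pearson correlation of log2(CPM + 1) over 18 units of fibre type or class and library. The units of a library share its preparation, and the values are a description. *Hdac9* was most like *Parvb* (r = 0.977), *Snx13* (0.929) and *Sgms1* (0.905). *Sox6* was most like *C530008M17Rik* (0.945), *Mylk2* (0.941), which encodes the skeletal myosin light chain kinase, and *Usp2* (0.932). *Hdac4* was most like *Nt5dc3* (0.937), *Sel1l3* (0.933) and *Met* (0.918).

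*Prox1* was most like *Pax7* (0.918), the marker of muscle stem cells, then *Tln2* (0.898) and *Pde10a* (0.860). The units did not include lymphatic endothelial-like nuclei, which were too few to form one. In that class *Prox1* had 27 and 15 UMIs in the libraries labelled WT and KO, and *Pax7* had 0 in both. *Tbx15* was most like *Pter* (0.918), *Sobp* (0.918) and *Dpyd* (0.913), and *Maf* like *Tbl1xr1* (0.891), *Mpp6* (0.858) and *Fhit* (0.852). Of the NFAT genes, *Nfatc1* was most like *Rel* (0.892), *Tm6sf1* (0.867) and *Cebpg* (0.863). *Nfatc2* was most like *Slc25a37* (0.894), *Rps6ka3* (0.882) and *Nsun3* (0.864). *Nfatc3* was most like *Gtf2a1* (0.869), *Akap10* (0.799) and *Scaf4* (0.780).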

How the data were processed

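The counts that the authors deposited were UMIs of each gene in each called barcode, as whole numbers with no normalization. The submitters' processing notes name Cell Ranger 7.0.0, Seurat 5.0.3 and the build mm10. Whether intronic reads were counted is not given in the sources used here. The labels name a 10x Multiome kit and the methods a 10x 3′ kit.

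Nuclei with 200 to 5000 genes and at most 5% mitochondrial UMIs were kept, and the highest Scrublet scores (scanpy 1.11.5) were removed as doublets at 0.8% per 1000 barcodes. Libraries were integrated with Seurat 5.3.0 in R 4.3.3 (RPCA, 2000 variable genes, 30 components, resolution 0.5, seed 1), without the members and 1339 genes that differed 2-fold between libraries in myonuclei. Of 18 clusters, 7 were myonuclear, with a myonuclear marker sum above 30000 CPM. The cluster naming rule, which needs markers among the top 10 genes and at least 3 detected, was settled with the clusters already in view. The members and lists were chosen with earlier results of these data known.

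Sums, exact Poisson, Clopper-Pearson and conditional 95% intervals were computed in Python 3.11.15 with scipy 1.17.1, and tested on simulated data. No p-values were computed. Shares of nuclei were taken after thinning to 1000 UMIs. The depth was 11974138 and 12026013 UMIs. Named genes were the members, *Bcl6*, up to 2 highest and 2 lowest called genes per list between libraries, those of the slow and fast lists between fibre types, and for members with at least 200 UMIs the 3 genes of most similar pattern among those with at least 500 UMIs, over units of at least 50 nuclei. Some genes that this rule names are not reported here. Gene spans came from GENCODE release M21. Alternatives left doublets in, set a mitochondrial limit of 1%, at least 500 genes, resolution 1.0, a 2-fold limit or a minimum of 20 UMIs, took classes from marker UMIs, averaged over nuclei, did not centre, scaled by TMM (edgeR 4.0.16) or median-of-ratios (DESeq2 1.42.0), thinned, kept nuclei with 1 main myosin gene, left out junction nuclei or weighted by fibre type.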

Additional observations from a re-analysis of the deposited data

Results flagged for a closer look

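The following values pointed in opposite directions in 2 groups under the same contrast, and none of these differences was tested. *Hdac9* in *Myh1*-main over *Myh2*-main nuclei had a relative log2 ratio of -0.73 in the WT-labelled library and 0.27 in the KO-labelled library. In the KO-labelled over the WT-labelled library, *Hdac9* had a relative log2 ratio of 0.84 in all myonuclei and -0.65 in MTJ-like nuclei, which are among them. A single MTJ-like nucleus held 126 of the 334 *Hdac9* UMIs of that class in the WT-labelled library, and the ratio without it was not computed. *Maf* in the KO-labelled library over the WT-labelled library had a relative log2 ratio of -0.35 in myonuclei and 0.76 in macrophage-like nuclei. *Sox6* had a ratio of -0.28 in myonuclei, against 0.57 in FAP-like nuclei and 0.30 in tenocyte-like nuclei. In FAP-like nuclei the *Sox6* level, 67.4 and 95.2 CPM in the WT- and KO-labelled libraries, was near the most that free myonuclear RNA could give, 70.8 and 86.2 CPM.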

How the results depend on the processing

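Across 14 alternatives, 411 of 500 ratios of single members, from 43 results, stayed within the interval of the reported value. Of the 500, 89 moved beyond it and 0 changed sign with a call. The 2-fold limit and the counts of genes called are not part of this tally. Single members lost their call in 13 values and gained one in 19. With a 2-fold limit, the members called between the libraries fell from 2 to 0, the listed genes called between the libraries from 30 to 17, the listed genes called between fibre types of the WT-labelled library from 42 to 27, and the members called between non-muscle nuclei and myonuclei of the KO-labelled library from 7 to 4. That last count was also 4 without centring on the median, and 4 after thinning. Typical genes were higher in non-muscle nuclei than in myonuclei by 0.65 and 0.71 (log2) by TMM, against medians of 0.25 and 0.28 for the WT- and KO-labelled libraries. Thinning to 1000 UMIs left 1 member called between the libraries and 25 listed genes between fibre types of the WT-labelled library. A mean over nuclei gave 5 members called between fibre types of the KO-labelled library, against 3. The share of all genes called was not computed under these alternatives. The counts therefore do not show whether the members or listed genes changed more than other genes. The ratio of *Hdac9* between the libraries ranged from 0.70 to 0.99 and that of *Nfatc2* from 0.43 to 0.78. Thinning leaves fewer UMIs, and the causes of these changes were not tested. No paired analysis was possible because each genotype had 1 library, and for the same reason no replicate could be left out. Depth limited *Nfatc4* and *Prox1* in myonuclei.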
